A study of Mus musculus with 65 samples.

Results

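Messenger RNA of 38 interferon-induced genes was followed in 17 mammary glands and 48 mammary tumours of mice, among 18194 genes with a probe set of their own on the arrays. The genes are known targets of interferons, and each was read from its probe set with the highest mean in the tissue among those annotated to 1 gene. Of the 38, 36 could be measured: 19 of 21 type I members, 10 gamma-type regulators, GTPases and chemokines, and 7 gamma-type genes of antigen processing. Isg15 lies on a probe set shared with another gene and Ifi44 has none of its own, so neither has a value below. The glands came from 10-week-old Balb/c littermates that were heterozygous for Tgfb1 (HT) or wild-type (WT), and all of these mice had received estrogen and progesterone 2 days before exposure. Glands were collected 1 week after sham exposure (HT n = 3, WT n = 3), 1 week after 10 cGy (HT n = 2, WT n = 3) and 4 weeks after 10 cGy (HT n = 3, WT n = 3), so that the only sham glands are those of 1 week and every contrast of irradiated with sham glands in a genotype shares them. Contrasts of 4-week with sham glands therefore differ in both dose and time, which cannot be told apart. The piece used was the rear end of an inguinal gland, cut so as to leave its lymph node out. The tumours had arisen from fragments of p53null mammary epithelium transplanted to fat pads whose own epithelium had been taken out when the hosts were 3 weeks old, in Tgfb1 heterozygous (Het) hosts that were irradiated (n = 10) or sham-treated (n = 6) and in wild-type hosts that were irradiated (n = 23) or sham-treated (n = 9), 3 days before the transplant. The transplanted epithelium lacks p53 and the heterozygous genotype is that of the host, so a tumour mixes donor epithelium with host stroma; no source used here gives the dose to the hosts.

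Interferons are secreted signals that switch cells into an antiviral and antigen-presenting state. Type I interferons act through the receptor chains Ifnar1 and Ifnar2 on a factor that includes Stat2 and Irf9 and binds the interferon-stimulated response element (ISRE), whereas interferon gamma, made chiefly by T and natural killer cells, acts through Ifngr1 and Ifngr2 on genes that carry the gamma-activated site (GAS). Many targets answer to both, so the division into type I and gamma-type members describes the stronger inducer rather than separate pathways. Among the gamma-type targets, Psmb8, Psmb9 and Psmb10 are the catalytic subunits that replace Psmb5, Psmb6 and Psmb7 in the immunoproteasome, Tap1 and Tap2 form the peptide transporter of the endoplasmic reticulum, Tapbp (tapasin) couples that transporter to class I molecules, and B2m is their light chain. In tumours and irradiated tissue this programme is known as a readout of nucleic acid sensing and of lymphocyte activity.

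Values are on the log2 scale throughout, so 1 unit is a doubling; gland and tumour values were scaled apart and are not compared with each other. All 36 measured members passed the filter on dim genes in both tissues. The targeted gene Tgfb1, no member, averaged -0.84 ± 0.13 log2 units (difference ± SE) in HT minus WT glands over the 3 conditions (limma, adjusted p = 0.0351), with 4.48, 4.09 and 4.67 in HT sham glands against 5.10, 5.04 and 5.13 in WT sham glands. It read 3.85 and 3.81 in HT against 5.45, 5.32 and 4.70 in WT glands at 1 week after 10 cGy, and 4.30, 4.65 and 4.31 against 4.90, 5.31 and 4.58 at 4 weeks. Tgfb1 did not pass the test in any single condition, the smallest adjusted p being 0.471 at 1 week after 10 cGy. Lymph node was labelled as removed, yet the mean of 8 measured B cell markers was 6.02, 7.95 and 6.40 in the first repeats of WT sham, WT 1-week and HT sham glands, against 4.12 to 4.87 in the other 14, and gland results are given with and without those 3 glands where they move. For 1 tumour of a wild-type host the labels disagree on irradiation; its title says irradiated and was followed. Each tissue sample is a mixture of cells, in which fewer cells of a type and less RNA per cell cannot be told apart.

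Promoter sequence was read for the members as the 250 bases before to 50 bases after the annotated RefSeq start (GRCm38.p6), and 30 of the 38 members had such a window; Oas2, Mx1, Mx2, Usp18, Dhx58, Parp14, Tap2 and Iigp1 did not. The core of the ISRE, spelled GAAA, any 2 bases and GAAA, and searched on both strands, was present in 14 of the 30 (46.7%), against 1079 of 27025 genes (3.99%). It was found in 7 of 15 type I members, in 6 of 9 gamma-type regulators, GTPases and chemokines and in 1 of 6 antigen processing genes. The GAS, spelled TTC, any 3 bases and GAA, which reads the same on both strands, was present in 7 of 30 members (23.3%), 3 of them type I and 4 gamma-type, against 9.55% of all genes. Bst2 and Igtp held both motifs. In the windows of Isg15 and Ifi44, which have no values here, the core occurred at 3 places and at none. A window without these letters says nothing of the factor, since sites can lie elsewhere or deviate from the spelling.

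Windows of 6 members are shown, chosen to span what the search found in genes the results turn on. Ifit1 has a pair of ISRE cores that begin at -104 and -85 relative to the start, Cxcl10 has 1 at -213, and B2m, with 1 at -139, is the only antigen processing gene that has any. Irf1 has a GAS at -90 and Irf8 has 2, the first at -171, while the window of Tap1 holds neither motif and overlaps the window of Psmb9, which is read from the other strand at chr17:34187281-34187580, minus strand. Sequences run 5′ to 3′ on the gene's strand and capitals mark the matches.
Ifit1 (chr19:34640639-34640938, plus strand): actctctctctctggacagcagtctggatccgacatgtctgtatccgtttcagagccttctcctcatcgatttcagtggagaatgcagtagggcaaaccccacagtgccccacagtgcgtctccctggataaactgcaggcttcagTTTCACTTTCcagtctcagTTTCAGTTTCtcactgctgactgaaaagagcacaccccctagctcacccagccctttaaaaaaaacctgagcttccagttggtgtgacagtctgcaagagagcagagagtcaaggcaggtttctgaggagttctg
Cxcl10 (chr5:92348840-92349139, minus strand): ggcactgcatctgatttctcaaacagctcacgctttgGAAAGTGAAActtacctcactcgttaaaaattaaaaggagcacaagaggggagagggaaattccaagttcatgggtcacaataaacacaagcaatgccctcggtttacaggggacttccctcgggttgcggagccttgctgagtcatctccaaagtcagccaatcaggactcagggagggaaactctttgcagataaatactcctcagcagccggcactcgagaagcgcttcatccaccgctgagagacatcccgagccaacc
Irf1 (chr11:53769764-53770063, plus strand): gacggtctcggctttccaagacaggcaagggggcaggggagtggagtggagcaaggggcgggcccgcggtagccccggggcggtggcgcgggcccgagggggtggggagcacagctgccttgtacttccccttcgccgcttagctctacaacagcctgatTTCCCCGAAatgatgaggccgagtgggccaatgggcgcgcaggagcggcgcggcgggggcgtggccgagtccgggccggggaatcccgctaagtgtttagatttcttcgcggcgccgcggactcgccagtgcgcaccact
Irf8 (chr8:120736108-120736407, plus strand): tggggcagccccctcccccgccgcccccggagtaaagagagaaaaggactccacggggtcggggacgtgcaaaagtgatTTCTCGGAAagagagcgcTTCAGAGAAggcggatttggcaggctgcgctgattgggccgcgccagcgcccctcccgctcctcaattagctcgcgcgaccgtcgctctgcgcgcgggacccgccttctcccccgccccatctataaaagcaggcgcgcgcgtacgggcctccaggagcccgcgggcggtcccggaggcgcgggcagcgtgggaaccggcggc
B2m (chr2:122147437-122147736, plus strand): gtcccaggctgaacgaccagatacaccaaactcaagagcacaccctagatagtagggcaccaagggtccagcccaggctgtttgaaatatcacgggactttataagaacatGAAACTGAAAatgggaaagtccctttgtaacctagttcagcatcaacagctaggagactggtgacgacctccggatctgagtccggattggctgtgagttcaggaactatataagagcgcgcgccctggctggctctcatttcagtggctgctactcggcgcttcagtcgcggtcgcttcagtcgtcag
Tap1 (chr17:34187306-34187605, plus strand): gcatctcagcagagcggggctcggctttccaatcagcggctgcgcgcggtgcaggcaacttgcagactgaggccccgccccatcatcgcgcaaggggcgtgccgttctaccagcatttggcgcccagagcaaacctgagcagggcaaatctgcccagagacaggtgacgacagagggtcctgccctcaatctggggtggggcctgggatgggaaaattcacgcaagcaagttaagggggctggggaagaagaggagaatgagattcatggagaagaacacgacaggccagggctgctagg

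One week after 10 cGy, WT glands held more messenger RNA of nearly all members than WT sham glands in their group means, but no member passed the test. All 19 type I members and 16 of 17 gamma-type members had the higher mean in irradiated glands, with class medians of 0.33 and 0.29 log2 units (1.26-fold and 1.22-fold), while the median of all tested genes was -0.02. With limma, 0 of 36 members reached an adjusted p under 0.05, as did 0% of the 12945 genes tested. At an unadjusted p under 0.05, 6 gamma-type members were higher and 0 type I members, where 1.71% of all tested genes were higher at that limit. The 6 were Psmb9, Igtp, Psmb8, Tap1, B2m and Irf1, so 4 of the 7 antigen processing genes and 2 of the 10 regulators, GTPases and chemokines.

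Psmb9, an immunoproteasome subunit encoded beside Tap1 in the class II region, read 9.55, 9.32 and 9.23 in WT glands at 1 week and 9.07, 8.94 and 8.68 in WT sham glands. Its difference was 0.47 ± 0.16 (SE; limma, unadjusted p = 0.00888, adjusted p = 0.958), and the groups did not overlap. Psmb8, its partner subunit, read 10.29, 10.14 and 10.14 in irradiated glands and 9.96, 9.78 and 9.72 in sham glands, a difference of 0.37 ± 0.15 (SE), again without overlap. The transporter subunit Tap1 was tighter still among repeats. It read 8.77, 8.64 and 8.73 at 1 week against 8.39, 8.42 and 8.49 after sham, which is 0.28 ± 0.11 (SE). B2m, the class I light chain, read 13.72, 13.54 and 13.53 in irradiated and 13.54, 13.37 and 13.36 in sham WT glands, and here the lowest irradiated value was just under the highest sham value. Igtp, a GTPase of defence against intracellular parasites, read 9.09, 9.29 and 8.87 against 8.46, 8.63 and 8.54, the largest difference among these 6 genes (0.54 ± 0.19, SE). Irf1, the transcription factor that relays interferon gamma, read 9.38, 8.96 and 9.33 at 1 week and 8.81, 9.18 and 8.77 after sham, so 1 irradiated gland lay below the highest sham gland. The adjusted p was 0.958 for each of these genes. In 6 members, Igtp, Socs1, Psmb8, Psmb9, Tap1 and Tap2, every irradiated WT gland was above every sham one, as in 4.13% of all tested genes. Cxcl10, a chemokine that draws T cells, did not share this separation: it read 5.26, 5.67 and 5.28 in irradiated and 5.38, 5.39 and 4.97 in sham glands.

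The type I members had a similar median but spread more widely among the irradiated repeats, their differences running from 0.01 to 0.79. Mx1, an antiviral dynamin-like GTPase, read 6.52, 8.32 and 7.36 at 1 week and 6.33, 6.60 and 6.92 in sham glands, with a difference of 0.79 ± 0.49 (SE; limma, unadjusted p = 0.13). Irf7, the factor that amplifies interferon production, read 8.22, 9.80 and 9.40 against 8.52, 9.00 and 8.63, and Bst2, the tetherin that holds budding virus at the cell surface, read 7.91, 8.94 and 8.83 against 8.11, 8.36 and 7.49. In all 3 the first irradiated repeat lay within or below the sham range while the second was the highest. Irf9, the DNA-binding partner of Stat2, varied less, with 8.09, 8.26 and 8.05 against 7.88, 8.16 and 7.76. Repeat 2 of the irradiated WT glands was the highest of all 17 glands for 17 of 19 type I members, among them Ifit1 at 10.29, where the other 2 irradiated repeats read 8.19 and 9.50. The mean of the 19 type I members per gland was 7.67, 9.09 and 8.65 in irradiated WT glands and 7.94, 8.31 and 8.10 in sham WT glands. Without irradiated repeat 2 the class median came to 0.06, and without irradiated repeat 1 to 0.72. The 7 antigen processing genes averaged 10.16, 10.06 and 10.09 against 9.82, 9.86 and 9.68, so that every irradiated WT gland was above every sham one on that mean.

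Immune cell markers also differed among these glands. The mean of 12 macrophage markers was 9.90, 10.76 and 10.53 in irradiated WT glands and 10.04, 10.22 and 9.61 in sham WT glands, and 11 of the 12 had the higher mean after irradiation (median 0.53). The 11 measured T and natural killer cell markers averaged 6.49, 4.85 and 4.90 against 5.82, 4.91 and 4.93, and the B cell markers 7.95, 4.33 and 4.38 against 6.02, 4.43 and 4.85. Repeat 1, low in the type I members, was thus the richest in lymphocyte markers, and it was the highest of the 17 glands for 7 of 17 gamma-type members, with Irf8, a factor of B and myeloid cells, at 8.42 where repeats 2 and 3 read 6.83 each. Without the 3 glands high in B cell markers the type I median was 0.61 and the gamma-type median 0.20, and 0 members passed the adjusted test. Skeletal muscle markers averaged 4.20, 4.17 and 9.00 in irradiated and 4.26, 11.16 and 8.41 in sham WT glands, and in a fit with that mean as a covariate 0 members passed. The part of the immune markers in the differences was not tested. Among related genes, 24 of 24 other interferon-induced genes measured had the higher mean in irradiated WT glands (median 0.23), and those with the smallest p were the GTPase Ifi47 (0.66 ± 0.24, SE) and the class I heavy chain H2-K1, whose difference was near the list's median (0.25 ± 0.11, SE). The constitutive proteasome genes split 4 and 4 with a median of 0.01.

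**Figure D1:**
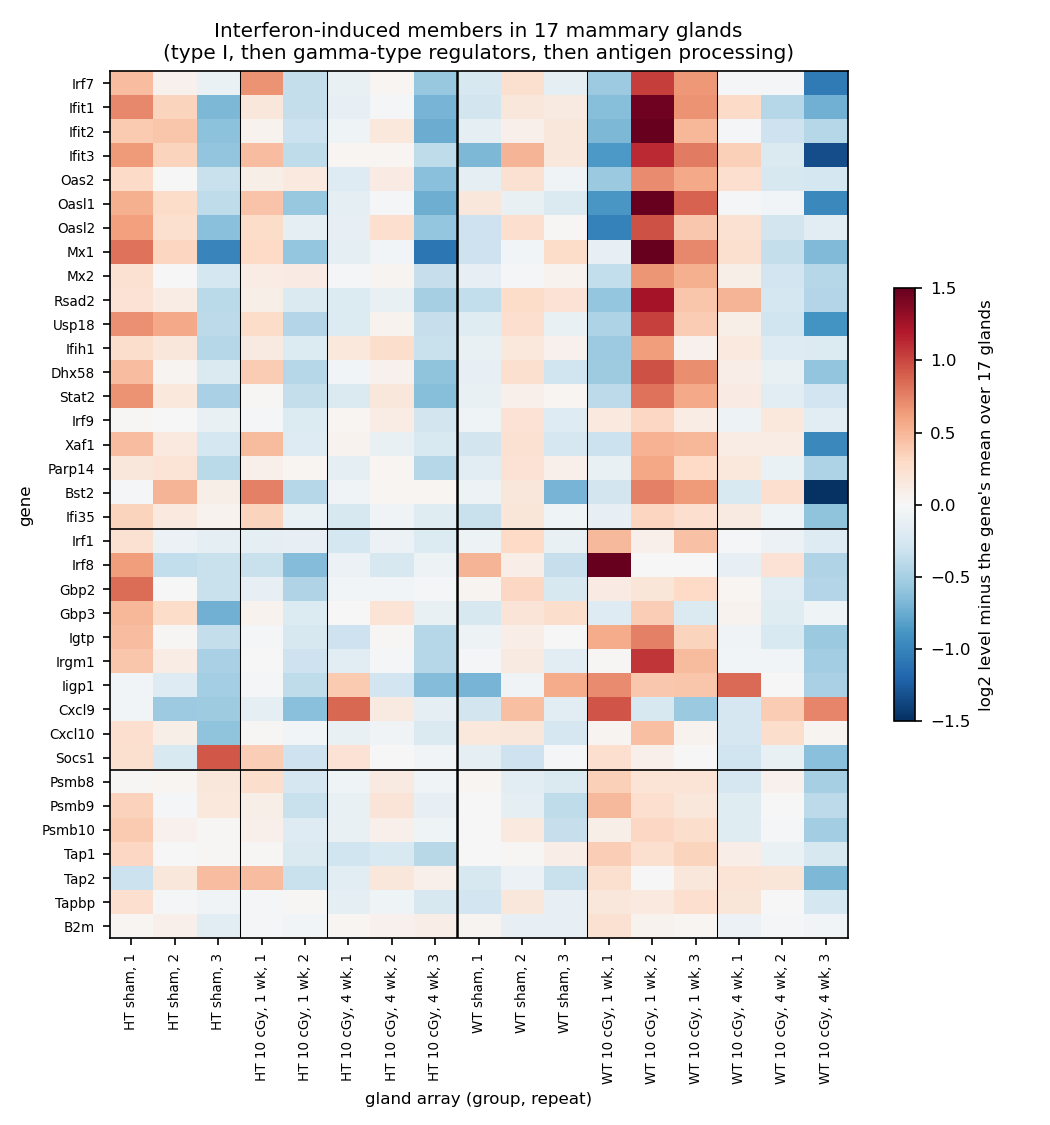
Levels of the 36 measured members (rows, by class) in each of the 17 glands (columns, HT left of WT), as log2 value minus the gene's mean over all glands, with colours limited to 1.5 log2 units either way. The column of the second irradiated WT gland at 1 week is high across the type I block, and the third WT gland at 4 weeks is low in both blocks.

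**Figure D2:**
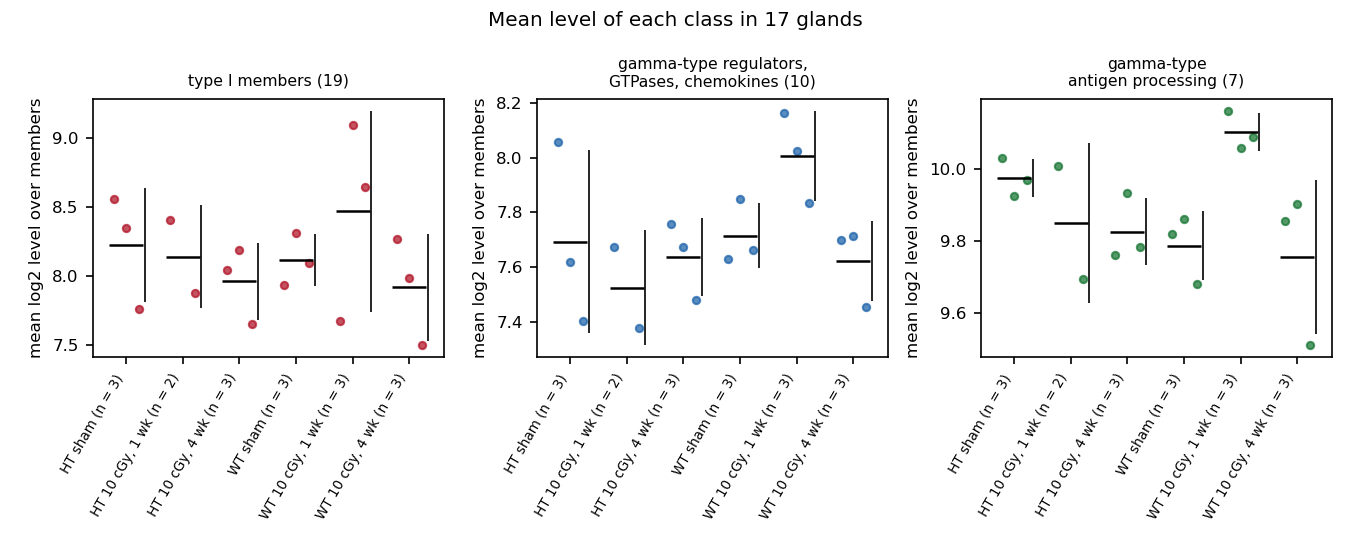
Mean log2 value per gland of the type I members, the gamma-type regulators, GTPases and chemokines, and the antigen processing genes, for HT glands left of WT glands at sham, 1 week and 4 weeks; points are glands, lines group means and bars ± SD. Type I means of the WT glands at 1 week run from 7.67 to 9.09, while their antigen processing means lie between 10.06 and 10.16.

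In HT glands most members had slightly lower means 1 week after 10 cGy than after sham, and the type I median equalled that of all genes. Of the type I members 5 of 19 and of the gamma-type members 2 of 17 had the higher mean in irradiated HT than in sham HT glands, with medians of -0.06 and -0.13 where all tested genes had -0.06, and 0 of 36 passed limma's adjusted test (0% of all genes tested) or had an unadjusted p under 0.05 (3.96% of all genes). All 7 antigen processing genes had lower means, by differences of -0.28 to -0.01. Tap1 read 8.42 and 8.18 in irradiated HT glands and 8.71, 8.39 and 8.42 in sham HT glands, and Psmb9 read 9.16 and 8.73 against 9.41, 9.03 and 9.22. Gbp2, a guanylate-binding GTPase, had the smallest p of the members, with 8.77 and 8.44 against 9.73, 8.90 and 8.56 (-0.46 ± 0.26, SE; limma, unadjusted p = 0.097, adjusted p = 0.995). In each of these 3 genes the irradiated and sham HT ranges overlapped. Among type I members, Usp18, the protease that dampens the type I receptor, read 8.64 and 7.93 in irradiated HT glands against 9.06, 8.94 and 7.97 in sham HT glands. Stat2 read 6.72 and 6.34 against 7.37, 6.86 and 6.21 and Irf9 7.93 and 7.73 against 7.96, 7.95 and 7.83. In Stat2 both irradiated values lay inside the sham range, and in Usp18 and Irf9 1 of the 2 lay below it. With only 2 irradiated HT glands, the type I median was -0.38 with the second alone and 0.13 with the first alone. Without HT sham repeat 1, the one high in B cell markers, the medians were 0.08 for type I and -0.01 for gamma-type members. That sham gland was also the highest HT sham gland for Tap1, Psmb9 and Gbp2. The 2 HT groups were separated without overlap in 0 members and in 16.5% of all genes, either way.

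The remaining representatives were followed through the HT glands in the order sham, 1 week and 4 weeks. Irf7 read 9.22, 8.82 and 8.66 after sham, 9.44 and 8.40 at 1 week and 8.65, 8.78 and 8.19 at 4 weeks, so the 1-week pair spanned more than the sham glands did. Irf1 read 9.11, 8.79 and 8.74, then 8.74 and 8.77, then 8.62, 8.80 and 8.68, and Cxcl10 read 5.47, 5.31 and 4.62, then 5.25 and 5.18, then 5.11, 5.17 and 5.01. Psmb8 read 9.96, 9.96 and 10.11, then 10.20 and 9.69, then 9.88, 10.08 and 9.89, and B2m 13.52, 13.56 and 13.32, then 13.46 and 13.45, then 13.52, 13.56 and 13.59. In all 5 genes both irradiated HT groups overlapped the sham HT glands.

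The contrast of HT with WT glands at 1 week after 10 cGy put every member on the HT-low side. All 19 type I and all 17 gamma-type members had the lower mean in irradiated HT glands, with medians of -0.30 and -0.41 against -0.04 for all tested genes, and none passed limma's adjusted test (0% of all genes tested). At an unadjusted p under 0.05, 6 gamma-type and 0 type I members were lower, beside 5.32% of all genes. Tap1 had 8.42 and 8.18 in HT glands and 8.77, 8.64 and 8.73 in WT glands (-0.41 ± 0.13, SE; adjusted p = 0.543). Igtp had 8.52 and 8.29 against 9.09, 9.29 and 8.87 (-0.68 ± 0.22, SE; adjusted p = 0.555), and Irf1 had 8.74 and 8.77 against 9.38, 8.96 and 9.33 (-0.47 ± 0.15, SE; adjusted p = 0.571). In these 3 genes both HT glands were below all 3 WT glands. The others past the unadjusted limit were Psmb9 (-0.42 ± 0.17), Irgm1, a GTPase of autophagic defence (-0.69 ± 0.29), and Irf8 (-1.01 ± 0.42), each with its SE. Irf8 was highest in the WT gland rich in B cell markers: it read 6.51 and 6.19 in HT glands and 8.42, 6.83 and 6.83 in WT glands. Of the type I members Irf9 came nearest, with 7.93 and 7.73 against 8.09, 8.26 and 8.05 (-0.30 ± 0.15, SE), followed by Mx1, 6.94 and 6.06 against 6.52, 8.32 and 7.36, and Stat2, 6.72 and 6.34 against 6.31, 7.51 and 7.27. Mx1 and Stat2 overlapped between the genotypes, the first WT repeat lying below the higher HT gland.

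Without overlap, 13 members were lower in HT glands at 1 week: Irf9 alone of the type I class, and Irf1, Irf8, Gbp2, Igtp, Irgm1, Iigp1, Cxcl10, Psmb9, Psmb10, Tap1, Tapbp and B2m of the gamma-type class. With 2 glands against 3 such separation is common, and 13.2% of all tested genes showed it in that direction. B2m had 13.46 and 13.45 in HT glands against 13.72, 13.54 and 13.53 in WT glands, a difference of -0.14 ± 0.09 (SE), and Cxcl10 had 5.25 and 5.18 against 5.26, 5.67 and 5.28. Psmb8 had 10.20 and 9.69 against 10.29, 10.14 and 10.14 and overlapped. The markers of immune cells were on the same side, with 11 of 12 macrophage markers (median -0.67), 11 of 11 T and natural killer cell markers (median -0.37) and 8 of 8 B cell markers (median -1.15) lower in mean in HT glands. The B cell mean was 4.43 and 4.55 in HT against 7.95, 4.33 and 4.38 in WT glands, so WT repeat 1 alone made it lower in HT glands. The T and natural killer cell mean was 4.81 and 4.52 against 6.49, 4.85 and 4.90, WT repeat 1 again standing out. The part of these cells in the result was not tested. The type I median was -0.01 without WT repeat 2, -0.68 without WT repeat 1, -0.69 without HT repeat 1 and -0.15 without HT repeat 2. The gamma-type median ran from -0.51 without HT repeat 1 to -0.21 without HT repeat 2. Of the other interferon-induced genes, 23 of 24 were lower in mean (median -0.34), 5 of them at an unadjusted p under 0.05: Ifi47, Irgm2, Cd274 (the ligand of the T cell inhibitory receptor), Samhd1 and Sp100. The constitutive proteasome had a median of 0.06 in the same contrast.

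The test of whether the response to 10 cGy at 1 week differed between the genotypes is the interaction of the 2 contrasts. It was negative for all 36 members, with medians of -0.41 for type I and -0.48 for gamma-type members, and 0 members passed the adjusted test (0% of all genes tested). At an unadjusted p under 0.05, 4 gamma-type members and 0 type I members were lower, against 2.21% of all genes: Psmb9 (-0.75 ± 0.23, SE; unadjusted p = 0.00632), Tap1 (-0.48 ± 0.17), Igtp (-0.71 ± 0.29) and Psmb10 (-0.50 ± 0.23). The type I median was -0.87 without WT repeat 1 at 1 week, -0.16 without WT repeat 2 and -0.15 without HT repeat 2. The other settings include leaving out the 3 glands high in B cell markers. Over them the type I median ran from -0.52 to -0.36 and the gamma-type one from -0.51 to -0.33. At 4 weeks the interaction had medians of -0.10 for type I and -0.03 for gamma-type members, with 0 members past the adjusted test (0% of all genes tested) or an unadjusted p of 0.05 (1.78%). The sign of these medians turned with single glands, the type I one running from -0.33 without WT repeat 3 at 4 weeks to 0.12 without WT repeat 1 at 4 weeks and the gamma-type one from -0.15 without HT sham repeat 3 to 0.09 without HT sham repeat 1; without the 3 glands high in B cell markers they were 0.20 and 0.07. At 4 weeks the interaction also takes in the later collection than in the sham glands, which cannot be told apart from dose. A difference between the genotypes in how the members answered 10 cGy was not shown for any single gene.

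At 4 weeks after 10 cGy most members had lower means in WT glands than in the WT sham glands, which were collected at 1 week. Dose and time cannot be told apart in this contrast or in that of HT glands. All 19 type I members had the lower mean at 4 weeks (median -0.17), as did 12 of 17 gamma-type members (median -0.12), with 0 of 36 past the adjusted test (0% of all genes tested) or an unadjusted p of 0.05 (2.29% of all genes). Igtp had the smallest p, reading 8.48, 8.30 and 7.98 in WT glands at 4 weeks and 8.46, 8.63 and 8.54 in WT sham glands (-0.29 ± 0.19, SE). Psmb10, the third inducible proteasome subunit, read 8.79, 8.96 and 8.45 against 8.97, 9.11 and 8.63, and Tap1 read 8.50, 8.30 and 8.15 against 8.39, 8.42 and 8.49. The third WT gland at 4 weeks was the lowest of its group in all 3 genes. Usp18 read 8.46, 8.07 and 7.46 against 8.19, 8.62 and 8.25, Irf7 8.73, 8.74 and 7.71 against 8.52, 9.00 and 8.63, and Parp14, an ADP-ribosyltransferase induced by interferon, 8.69, 8.44 and 8.07 against 8.38, 8.76 and 8.61. Repeat 3 of this group was the lowest of all 17 for 10 of 19 type I and 7 of 17 gamma-type members, with a macrophage marker mean of 9.17 where the other 2 read 9.91 and 10.35, and without it the type I median was -0.002 and the gamma-type median -0.03. Without repeat 1 of this group they were -0.33 and -0.19. Psmb8 read 9.68, 10.01 and 9.44, B2m 13.40, 13.48 and 13.44, Irf1 8.87, 8.80 and 8.69 and Cxcl10 4.97, 5.49 and 5.26 in WT glands at 4 weeks, within or near the sham values given above.

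In HT glands at 4 weeks Tap1 had the smallest p of the members. It read 8.09, 8.16 and 7.98 in HT glands at 4 weeks and 8.71, 8.39 and 8.42 in HT sham glands, a difference of -0.43 ± 0.11 (SE; limma, unadjusted p = 0.00221, adjusted p = 0.511). All 3 irradiated glands lay below all 3 sham glands, which also held for Ifi35, 10.29, 10.48 and 10.35 against 10.87, 10.68 and 10.58, and Tapbp, 10.29, 10.35 and 10.18 against 10.67, 10.40 and 10.37, and for 5.46% of all genes in that direction. The type I median was -0.24 with 18 of 19 members lower in mean, and the gamma-type median -0.17 with 13 of 17 lower. Both leaned on single sham glands: without HT sham repeat 1, the one high in B cell markers, the medians were -0.09 for type I and -0.065 for gamma-type members, and without HT sham repeat 3 they were -0.44 and -0.26. Tap1 alone had an unadjusted p under 0.05, against 2.38% of all genes lower at that limit, and 0 members passed the adjusted test (0.0154% of all genes tested). Cxcl9, a chemokine for activated T cells, was on the other side, with 7.62, 6.89 and 6.63 in irradiated and 6.72, 6.22 and 6.23 in sham HT glands (0.66 ± 0.37, SE; unadjusted p = 0.0997). Usp18 read 8.16, 8.42 and 8.02 against 9.06, 8.94 and 7.97 and Stat2 6.48, 6.87 and 6.06 against 7.37, 6.86 and 6.21, both overlapping. The neighbouring subunit Psmb9 read 8.95, 9.26 and 8.94 in HT glands at 4 weeks against 9.41, 9.03 and 9.22 after sham, and overlapped. Outside the members, the receptor chain Ifngr2 (0.54 ± 0.20, SE) and Ifngr1 (0.31 ± 0.14) were higher and the kinases Jak2 (-0.56 ± 0.16) and Tyk2 (-0.29 ± 0.13) lower at an unadjusted p under 0.05, none passing the adjusted test.

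Between the genotypes the class medians lay nearer 0 in sham glands and at 4 weeks than at 1 week, a comparison made without a test. In HT against WT sham glands the medians were 0.12 for type I and 0.04 for gamma-type members, with 0 members past the adjusted test (0% of all genes tested) or an unadjusted p of 0.05 (3.55% of all genes). All 7 antigen processing genes had the higher mean in HT sham glands (median 0.19). Psmb9 came first, with 9.41, 9.03 and 9.22 in HT and 9.07, 8.94 and 8.68 in WT sham glands (unadjusted p = 0.0559), overlapping by 1 gland. Psmb10 read 9.36, 9.03 and 8.98 against 8.97, 9.11 and 8.63. Socs1, the feedback inhibitor of Jak kinases, read 5.26, 4.80 and 5.95 in HT and 4.88, 4.71 and 5.00 in WT sham glands. Ifi35 read 10.87, 10.68 and 10.58 against 10.20, 10.71 and 10.46, Bst2 8.17, 8.70 and 8.27 against 8.11, 8.36 and 7.49 and Usp18 9.06, 8.94 and 7.97 against 8.19, 8.62 and 8.25. All 3 overlapped. Repeat 1 of the HT sham glands, high in B cell markers, decided the sign of the gamma-type median, which was -0.15 without it and -0.17 without all 3 such glands; the type I median was -0.13 and -0.22 in the same settings. At 4 weeks the medians were 0.02 for type I and 0.04 for gamma-type members, with 0 members past the adjusted test (0.0154% of all genes tested) or an unadjusted p of 0.05 (5.96%). Tap1 read 8.09, 8.16 and 7.98 in HT and 8.50, 8.30 and 8.15 in WT glands at 4 weeks (-0.24 ± 0.11, SE; unadjusted p = 0.0553), whereas Psmb8 read 9.88, 10.08 and 9.89 against 9.68, 10.01 and 9.44 and Socs1 5.24, 5.02 and 4.97 against 4.72, 4.91 and 4.39. Socs1 and B2m were the members higher in HT glands without overlap at 4 weeks, beside 5.02% of all genes. Of the type I members Bst2 read 8.13, 8.21 and 8.22 against 7.96, 8.44 and 6.71, Rsad2, the antiviral radical enzyme viperin, 8.88, 8.98 and 8.60 against 9.61, 8.84 and 8.65, and Usp18 8.16, 8.42 and 8.02 against 8.46, 8.07 and 7.46. All 3 overlapped between the genotypes. At 4 weeks without the third WT gland the medians were -0.19 and -0.10, and without the third HT gland 0.22 and 0.11. Over the 3 conditions together the medians were -0.08 and -0.07, and Tap1 (-0.19 ± 0.07, SE; adjusted p = 0.328) and Irf1 (-0.20 ± 0.08; adjusted p = 0.379) were lower in HT glands at an unadjusted p under 0.05, where 7.56% of all genes were, and 0 members passed the adjusted test against 0.0463% of all genes.

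**Figure D3:**
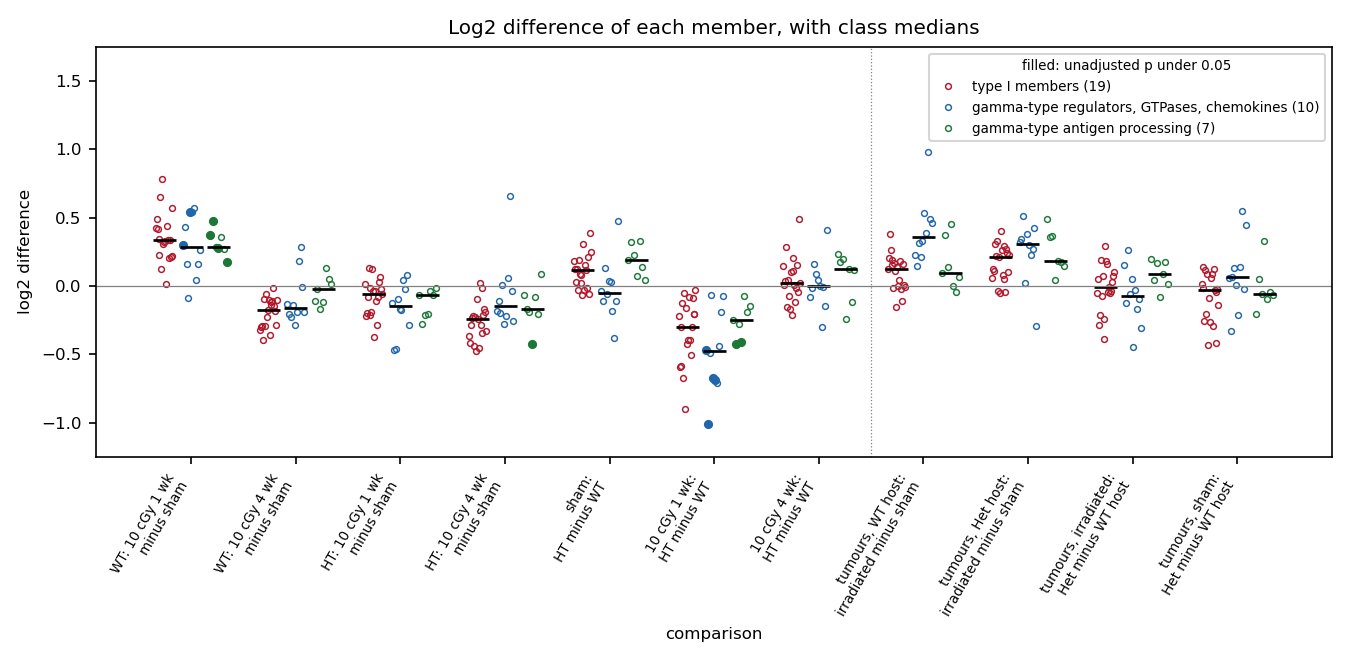
Log2 difference of each measured member in each pairwise comparison, with the type I members, the gamma-type regulators, GTPases and chemokines, and the antigen processing genes side by side; filled points have an unadjusted p under 0.05 and black lines mark the class medians. Filled points occur in WT glands at 1 week, in HT against WT glands at 1 week and, for Tap1, in HT glands at 4 weeks, and no member passed the adjusted test.

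In the tumours the members ranged far more widely among single tumours than between the host groups. The mean of the 19 type I members ran from 7.36 to 11.12 over the 48 tumours, a 13.5-fold range, and that of the 17 gamma-type members from 8.26 to 11.70, a 10.8-fold range. The regulators, GTPases and chemokines spanned 14.5-fold, the antigen processing genes 7.46-fold and the constitutive proteasome genes 1.85-fold. The median SD of a type I member was 1.08 log2 units and of a gamma-type member 0.78, against 0.40 for all tested genes. Host group accounted for a median of 1.03% of the variance of a type I member and 3.43% of a gamma-type member, against 5.48% for all tested genes. The share expected from the number of groups alone is 6.38%, above each of these medians.

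Single tumours of irradiated wild-type hosts, the largest group (23 of the 48 tumours), occupied both ends of the range. A group's lowest and highest values tend to lie farther apart the more tumours it has. Ranges of groups of unlike size are therefore not a comparison of spread, here or below. Repeat 3 of that group was the lowest of all 48 for 12 of 19 type I and 9 of 17 gamma-type members, with Irf7 at 7.79, Ifit1 at 7.07, Cxcl10 at 5.86 and B2m at 12.85. Repeat 13 was the highest for 7 type I members, with Irf7 at 12.43 and Ifit1 at 11.95. Repeat 22 was the lowest for Psmb8 at 9.29, Psmb9 at 8.47 and Tap1 at 7.41. Repeat 16 was the highest for 9 gamma-type members, with Cxcl10 at 11.99, Cxcl9 at 11.79, Psmb9 at 12.75 and Tap1 at 11.28. In repeat 16 both the T and natural killer cell markers (mean 6.51) and the B cell markers (mean 6.07) were above the median tumour, while repeat 13 had 5.81 and 4.72 and repeat 3 had 4.87 and 4.71. Repeat 6, the tumour richest in B cell markers (6.96) and in T and natural killer cell markers (7.30), had a type I mean of 10.01 and a gamma-type mean of 11.13. The macrophage marker mean was 9.75 in repeat 3, against 11.19 in repeat 13 and 11.40 in repeat 16, and the part of these cells in the members' levels was not tested. Repeat 3 of the sham-treated Het hosts had the lowest gamma-type mean of its group (8.93), while its type I mean of 9.20 lay inside the group's range. In it Irf7 read 10.72, near the group's median of 10.66, and Cxcl10 read 7.22, the lowest of the group.

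Irradiation of wild-type hosts went with higher group means of the gamma-type members, none of which passed the test. In tumours of irradiated against sham-treated wild-type hosts, 16 of 17 gamma-type members and 14 of 19 type I members had the higher mean, with medians of 0.32 and 0.13. With limma, 0 members reached an adjusted p under 0.05 (0% of the 12786 genes tested) or an unadjusted p under 0.05 (6.94%). Cxcl9 averaged 8.65 ± 1.55 (SD, n = 23) in irradiated hosts, with a lowest, median and highest value of 5.88, 8.59 and 11.79, against 7.67 ± 0.85 (SD, n = 9) in sham hosts, with 5.99, 7.70 and 8.97. The difference was 0.98 ± 0.49 (SE; limma, unadjusted p = 0.0525, adjusted p = 0.718), and the group of irradiated hosts reached both above and below that of sham hosts. Another Cxcl9 probe set, with a lower mean of 6.01 over the tumours, gave a smaller difference of 0.34. Socs1 ran 5.16, 5.86 and 7.90 (lowest, median and highest) in irradiated against 5.11, 5.69 and 6.37 in sham wild-type hosts, with a difference of 0.46 ± 0.24 (SE; adjusted p = 0.72). Irgm1 ran 8.60, 10.50 and 11.90 against 9.16, 9.96 and 10.52 (0.53 ± 0.32, SE), and for both genes the tumours of irradiated hosts extended higher. Among type I members Ifit2, an RNA-binding antiviral protein, ran 7.41, 9.97 and 11.80 against 8.50, 9.34 and 11.11. Its relative Ifit3 ran 6.95, 9.53 and 11.59 against 8.17, 8.83 and 11.14, and Stat2 5.71, 7.82 and 8.84 against 6.64, 7.20 and 8.14. In all 3 the tumours of irradiated hosts, the larger group, extended both higher and lower. Without the 2 tumours rich in B cell markers, both of irradiated wild-type hosts, the gamma-type median was 0.18 and the type I median 0.02. Over the 8 other settings the gamma-type median fell as low as 0.06, and the type I median turned negative in 1 (-0.33).

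Tumours of irradiated Het hosts against those of sham-treated Het hosts gave medians of 0.30 for gamma-type and 0.22 for type I members, with 16 of 17 and 16 of 19 members higher in mean. Again 0 members passed the adjusted test (0% of all genes tested) or had an unadjusted p under 0.05 (3.95%). Psmb8 ran 10.87, 11.95 and 13.09 (lowest, median and highest) in irradiated and 10.29, 11.49 and 12.48 in sham Het hosts, a difference of 0.49 ± 0.38 (SE; unadjusted p = 0.202). Irf1 ran 9.90, 10.69 and 11.22 against 9.10, 10.41 and 11.04 and Psmb10 9.74, 10.26 and 11.06 against 9.16, 9.88 and 10.87. In these 3 genes the lowest tumour came from a sham-treated host. Rsad2 ran 9.74, 10.52 and 12.05 in irradiated against 9.57, 9.86 and 11.50 in sham Het hosts, Ifi35 10.72, 11.45 and 12.11 against 10.53, 11.16 and 12.14, and Dhx58, a sensor of viral RNA, 7.43, 8.66 and 9.58 against 7.32, 7.95 and 9.65. All 3 overlapped over most of their range. The interaction of host irradiation and host genotype had medians of 0.07 for type I and 0.05 for gamma-type members, with 0 members past the adjusted test (0% of all genes tested) or an unadjusted p of 0.05 (4.83%), Socs1 coming first at -0.75 ± 0.39 (SE; unadjusted p = 0.0613).

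Host genotype had class medians near those of all genes. In sham-treated hosts, Het against wild-type, the medians were -0.03 for type I and 0.01 for gamma-type members, and in irradiated hosts -0.01 and 0.02. No member passed the adjusted test in either (0% and 0.00782% of all genes tested) or had an unadjusted p under 0.05 (5.29% and 5.6%). In sham-treated hosts Socs1 ran 5.31, 6.20 and 7.03 (lowest, median and highest) in Het against 5.11, 5.69 and 6.37 in wild-type hosts, and Cxcl9 6.27, 8.35 and 9.97 against 5.99, 7.70 and 8.97. Irf8 ran 6.63, 8.49 and 8.93 against 7.53, 8.36 and 9.99. These ranges overlapped, with Het hosts extending higher for Socs1 and Cxcl9 and lower for Irf8. Xaf1, an interferon-induced factor of cell death, ran 9.56, 11.09 and 12.38 in Het against 10.59, 11.08 and 12.59 in wild-type sham hosts, Mx1 6.90, 7.13 and 9.43 against 6.65, 8.05 and 9.78 and Dhx58 7.32, 7.95 and 9.65 against 8.01, 8.57 and 9.53. Their differences lay between -0.44 ± 0.61 for Mx1 and -0.29 ± 0.50 (SE) for Dhx58. In irradiated hosts Irgm1 ran 8.27, 9.95 and 10.95 in Het and 8.60, 10.50 and 11.90 in wild-type hosts (-0.44 ± 0.30, SE; unadjusted p = 0.15). Socs1 ran 5.05, 5.93 and 6.61 against 5.16, 5.86 and 7.90 and Tapbp 11.37, 11.83 and 12.54 against 10.04, 11.72 and 12.82. For both the irradiated wild-type hosts gave the highest tumour. Mx1 ran 6.63, 8.25 and 9.40 in Het against 5.34, 8.58 and 10.80 in wild-type irradiated hosts, Mx2 6.06, 7.23 and 8.55 against 5.93, 7.53 and 9.37 and Rsad2 9.74, 10.52 and 12.05 against 8.23, 10.51 and 12.20. The range of the Het hosts (n = 10) lay inside that of the more numerous wild-type hosts (n = 23) in all 3.

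Representatives of each role were followed across the 4 host groups. Irf7 averaged 10.61 ± 0.79 in irradiated Het, 10.55 ± 1.18 in sham Het, 10.66 ± 1.34 in irradiated wild-type and 10.54 ± 0.84 in sham wild-type hosts (SD), with neighbours in that order less than 1 SD apart. Its lowest, median and highest values were 9.17, 10.61 and 12.17, then 9.15, 10.66 and 11.96, then 7.79, 11.04 and 12.43 and last 9.82, 10.19 and 12.39 in the same order of groups. Irf7 therefore varied widely inside the irradiated wild-type hosts and much less between group means. Cxcl10 ran 8.90, 9.28 and 9.79 in irradiated and 7.22, 8.95 and 10.47 in sham Het hosts, and 5.86, 9.72 and 11.99 in irradiated and 7.72, 9.23 and 10.77 in sham wild-type hosts. Tap1 ran 8.22, 9.23 and 10.45 and 8.21, 9.31 and 10.18 in Het hosts, irradiated and sham, and 7.41, 9.64 and 11.28 and 8.34, 8.96 and 9.92 in wild-type hosts, irradiated and sham. B2m ran 13.91, 14.14 and 14.43 and 13.58, 14.07 and 14.30 in Het hosts and 12.85, 14.27 and 14.54 and 13.44, 14.16 and 14.41 in wild-type hosts, in the same order. In all 3 genes the tumours of irradiated Het hosts (n = 10) were bounded by those of irradiated wild-type hosts (n = 23), the larger group. Psmb8 in wild-type hosts ran 9.29, 12.02 and 13.09 after irradiation and 11.20, 11.64 and 12.50 after sham treatment, and Irf1 8.81, 10.60 and 11.16 and 9.62, 10.36 and 11.03. Tgfb1 averaged 8.53 ± 0.34, 8.23 ± 0.94, 8.75 ± 0.41 and 9.18 ± 0.91 (SD) in irradiated Het, sham Het, irradiated wild-type and sham wild-type hosts, and did not pass the test between any of them.

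**Figure D4:**
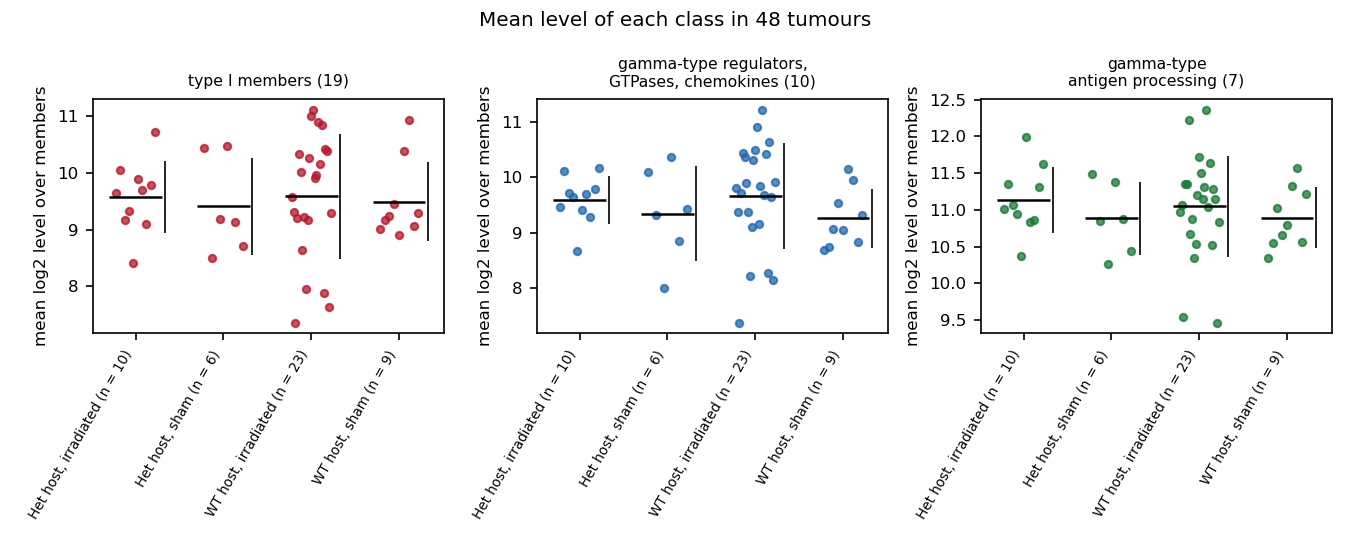
Mean log2 value per tumour of the type I members, the gamma-type regulators, GTPases and chemokines, and the antigen processing genes in the 4 host groups (Het irradiated, Het sham, wild-type irradiated, wild-type sham); points are tumours, lines group means and bars ± SD. The irradiated wild-type hosts, the largest group, hold both the lowest (7.36) and the highest (11.12) type I mean, and the 4 groups overlap in every panel.

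Across single tumours the 2 classes were high or low together. After each group's mean was subtracted, the type I mean and the gamma-type mean had a Pearson r of 0.889 (Spearman rho 0.845) over 48 tumours, and r of 0.85 without the 2 tumours farthest from the median. Within groups r was 0.923 in irradiated Het (n = 10), 0.689 in sham Het (n = 6), 0.916 in irradiated wild-type (n = 23) and 0.889 in sham wild-type hosts (n = 9). All these points share arrays and scaling, so the values describe likeness and carry no test, and 41 such relations were computed in each tissue beside those within groups. In glands r between the 2 class means was 0.438 (rho 0.529, and r of 0.669 without the 2 farthest, over 17 glands). The median correlation between pairs of type I members was 0.851 in glands and 0.858 in tumours, and between pairs of gamma-type members 0.255 in glands and 0.632 in tumours.

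Each member was also set against the mean of its own class with itself left out. In tumours the type I members reached a median r of 0.936, from 0.655 for Irf9 to 0.965 for Irf7. The gamma-type GTPase Igtp reached 0.930 with its own class and 0.931 with the type I class, and Gbp3 and Irgm1 were nearer to the type I mean (0.911 and 0.786) than to their own (0.861 and 0.675). By smaller margins so were the antigen processing genes Tap1 (0.800 against 0.793) and B2m (0.676 against 0.667). The type I member Parp14 was nearer to the gamma-type mean (0.926) than to its own (0.909). Irf8 (0.346) and Socs1 (0.503) stood apart from their class in tumours and were closer to the T and natural killer cell markers (0.715 and 0.691) and to the macrophage markers (0.780 and 0.551). Psmb10 and Cxcl9 lay between, each at 0.526 with the T and natural killer cell markers. Whole classes were less tied to those markers: the T and natural killer cell mean had r of 0.136 with the type I mean and 0.398 with the gamma-type mean, and the macrophage mean 0.164 and 0.394. The T and natural killer cell values differed in sign among the host groups. With the type I mean r was -0.605 in irradiated Het, -0.316 in sham Het, 0.243 in irradiated wild-type and 0.284 in sham wild-type hosts. With the gamma-type mean it was -0.555, 0.435, 0.490 and 0.583 in the same order, and in irradiated Het hosts rho was -0.358 with the type I and -0.103 with the gamma-type mean. In that group repeat 13 had the highest T and natural killer cell mean (6.42) and the lowest type I and gamma-type means (8.41 and 9.37). The values without that tumour were not computed. In glands the type I mean was nearer to the macrophage markers (r 0.811, rho 0.75, and 0.727 without the 2 farthest glands), with member values from 0.604 for Rsad2 to 0.908 for Xaf1. There Irf8 had r of 0.951 with the T and natural killer cell markers and 0.927 with the B cell markers, and Irgm1, a gamma-type GTPase, had 0.938 with the type I mean against 0.462 with its own. The 13 measured members with an ISRE core in the window had a median r of 0.873 with their class in tumours, against 0.846 for the 15 members whose window lacked it.

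**Figure D5:**
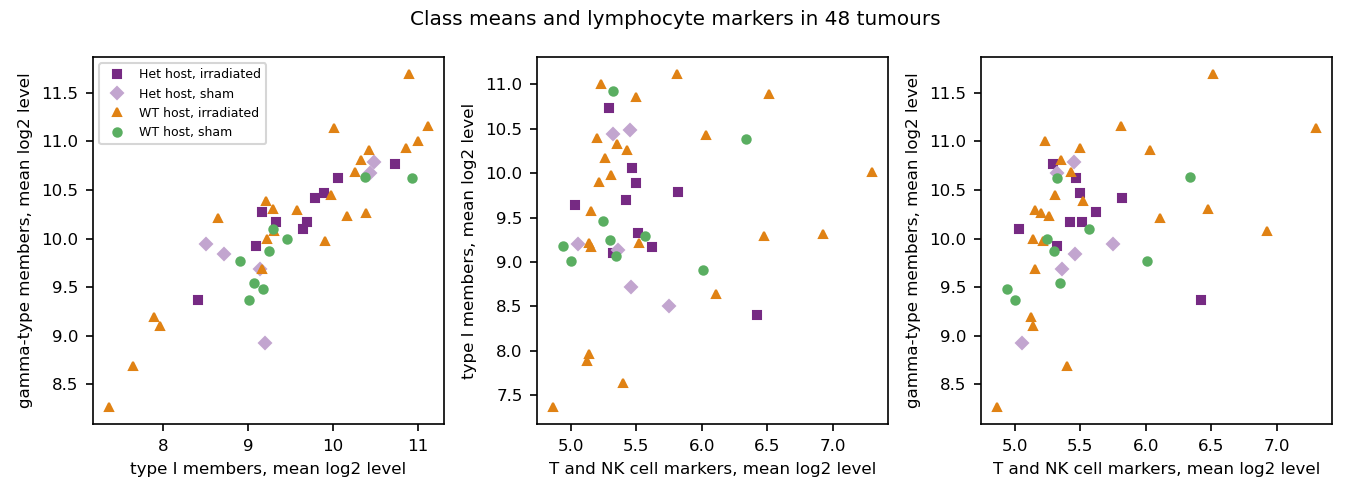
Mean log2 levels per tumour, coloured by host group: gamma-type against type I members (left), and type I (middle) and gamma-type members (right) against the T and natural killer cell markers. In the left panel the tumours of all 4 groups lie along 1 band from repeat 3 of the irradiated wild-type hosts at the low end (7.36 and 8.26) to repeats 12, 13 and 16 of the same group at the high end.

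The interferon genes upstream of the members were dim. Ifnb1, Ifng and Ifna4, the interferon genes with a probe set of their own among those listed, lay under the filter in both tissues, with means of 3.66, 2.85 and 3.11 in glands and 4.36, 3.23 and 3.84 in tumours, so no change in them could be tested. The receptor chains and kinases were measured well above it, and in tumours their list mean, ligands included, had r of 0.414 with the type I and 0.586 with the gamma-type mean. Tlr3 and Tbk1 had r of 0.64 and 0.60 with the type I mean in tumours, Mavs and Irf3 0.02 and 0.42. The RNA sensor Ddx58, itself interferon-induced, had r of 0.92 in glands and 0.85 in tumours with the type I mean, and the nucleic acid sensor Zbp1 0.89 and 0.88. Zbp1 ran from 6.09 to 11.03 over the tumours. Of the class I pathway genes outside the members, Nlrc5, the transactivator of class I genes, had r of 0.82 with the gamma-type mean in tumours, H2-K1 0.79, the proteasome activator Psme1 0.69 and Cd274 0.80. Psmb5, Psmb6 and Psmb7, which the inducible subunits replace, had r of 0.02, 0.52 and 0.22 with that mean.

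Genes outside the members that were most like each class were ranked by correlation over the 48 tumours with group means subtracted. For the type I mean they were Oas1a (r 0.967), Ddx60 (0.934), Rtp4 (0.925), Irgm2 (0.924), Parp9 (0.921), Dtx3l (0.915), Oas3 (0.915) and Phf11d (0.911), and 5 of these 8 were on the lists of interferon-induced genes drawn up for this work. In glands the same genes had r of 0.761 to 0.977 with the type I mean. For the gamma-type mean they were Irgm2 (0.937), Gm4951 (0.926), Gbp2b (0.913), Ifi44l (0.909), Sp100 (0.900), Phf11d (0.894), Trim30a (0.893) and Ly6e (0.884), which in glands had 0.359 to 0.687. Irgm2 and Phf11d stood on both lists. Oas1a and Oas3 make the oligoadenylates that activate RNase L, Gbp2b and Irgm2 are GTPases of the same families as members, and Parp9 and Dtx3l form a complex that modifies proteins. Over all tested genes the median r was 0.008 with the type I and close to 0 with the gamma-type mean, and 97.5% of genes lay below 0.467 and 0.490. Of 14 members with several probe sets of their own, 19 further probe sets were compared with the chosen ones, and 14 of them in tumours and 11 in glands correlated at r above 0.7. The difference between irradiated and sham wild-type samples (glands at 1 week) had the opposite sign to that of the chosen probe set in 7 of the 19 in tumours and in 4 of the 19 in glands.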

How the data were processed

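Affymetrix mouse expression arrays of 17 mammary glands and 48 tumours were analysed. The deposited gland values are linear intensity values and the deposited tumour values are log2 intensities, both from RMA, per the submitters' processing notes, of a version no source used here gives; gland values were taken to log2. No reads or counts underlie these values, so the number of arrays limits the precision. Array medians ran from 4.86 to 4.93 log2 units in glands and from 5.84 to 5.96 in tumours. Of 45101 probe sets, 34958 name 1 gene, 932 several and 9211 none; gene names came from the platform annotation and 99.4% of gene IDs matched RefSeq. Each gene took its probe set with the highest mean in the tissue. Genes under the 40th percentile of all probe-set means (4.15 and 5.14 log2 units) were not tested.

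A group-means model was fitted in each tissue with limma 3.58.1 in R 4.3.3 (lmFit and eBayes with a trend, 11 and 44 residual degrees of freedom), with Benjamini-Hochberg adjustment over all 12945 or 12786 genes tested and a threshold of 0.05; other values were computed in Python 3.11.15. The procedure was tested on simulated data. Labels do not say that gland repeats are separate animals, so p-values measure the spread between these samples, which may be technical.

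The members and lists were chosen with earlier results of these data known. Genes named with values are, in each pairwise comparison, the 3 type I and 3 gamma-type members with the smallest p, fixed representatives of each role (Irf7, Irf1, Psmb8, Tap1, B2m, Cxcl10) and Tgfb1, with up to 4 pathway genes a list and the 8 genes most like each class; single members of the extreme tumours, Ifit1, members named for their correlations and any other member given values (such as Psmb9, Irgm1 and Irf8 beyond the 3 smallest p) were chosen after their values were seen. Isg15 and Ifi44 have no probe set of their own. Same-numbered repeats deviated together by the correlation of their deviations from group means in HT sham and 4-week glands (0.112 to 0.316) and in WT sham and 4-week glands (0.123 to 0.216). In HT 1-week and WT sham glands they did so too (0.225 to 0.283), but those share only 2 numbers, too few to judge pairing, and in no other pair of groups were all same-numbered correlations over 0.1. Alternatives were the mean of a gene's probe sets, no filter, no trend, quantile scaling, a replicate block, a muscle or T cell covariate, each gland left out in turn and the tumour with conflicting labels left out; leaving out the glands or tumours rich in B cell markers was added after seeing the data.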

Additional observations from a re-analysis of the deposited data

Results flagged for a closer look

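In 114 checks, of the 36 measured members and the 2 class means within each of the 3 groups of 4 to 10 tumours, 4 values lay far from the rest of their group. At an assumed rate of 1 in 20, chance would flag 5.7 of these checks, and the 4 flags are not above that number. Members of a class move together across tumours, so the checks are not independent and the count cannot decide whether the flags are chance. Xaf1, Igtp and Irgm1 were low in the same tumour, repeat 13 of the irradiated Het hosts (n = 10). Xaf1 read 8.637 log2 units there, and the nearest other tumour of the group 10.766. Igtp read 9.022, with the nearest at 10.542, and Irgm1 read 8.273, with the nearest at 9.643. Over all members that tumour had a type I mean of 8.41 and a gamma-type mean of 9.37, the lowest of its group in both classes, and its macrophage marker mean of 12.06 was the highest of the 48 tumours. B2m read 13.438 in repeat 8 of the sham-treated wild-type hosts (n = 9), with the nearest other tumour of that group at 13.918. Groups of 3 glands or of 23 tumours were not checked in this way.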

How the results depend on the processing

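No member passed the adjusted test under any setting, over 25 gland settings with 10 comparisons each and 9 tumour settings with 5 each. The settings reuse the same arrays, and the smallest adjusted p (limma) was 0.116 in glands and 0.553 in tumours. With each gland left out in turn, the type I median at 1 week in WT glands ran from 0.06 to 0.72 and the gamma-type median from 0.25 to 0.39; the type I median of HT against WT glands at 1 week ran from -0.69 to -0.01 and the gamma-type one from -0.51 to -0.21. The interaction at 1 week ran from -0.87 to -0.15 for type I and from -0.70 to -0.36 for gamma-type members, the gamma-type median of HT glands at 1 week from -0.32 to -0.0124, and that of HT against WT sham glands from -0.15 to 0.15. Without the 3 glands rich in B cell markers, a setting chosen after seeing the data, the gamma-type median of HT against WT sham glands was -0.17. With the replicate number as a block, the tumours of irradiated against sham-treated Het hosts had a type I median of -0.79, against 0.22 without it. Tumour numbers do not pair the samples, and these 2 groups share no number, so that the blocked value links them through the wild-type hosts. Over the 8 other settings the gamma-type median of this contrast ran from -0.09 to 0.30. In wild-type hosts, irradiated against sham-treated, the type I median ran from -0.33 to 0.13 and the gamma-type one from 0.06 to 0.32. All gland groups except HT glands at 1 week hold the same repeat numbers, so the block cancels from every difference among them. Class medians of those contrasts could therefore not change and say nothing of the block. Among them are the type I medians of 0.33 in WT glands at 1 week, and of -0.17 in WT and -0.24 in HT glands at 4 weeks. The block changed no call in any comparison. The cause of these shifts was not tested, other than that fewer glands enter each fit with 1 left out. Bounds on composition rest on list means of bulk tissue, and dim interferon genes under the filter could not be tested.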
